A study of Mus musculus with 17 samples.

Results

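Serine 5 of the RNA polymerase II (Pol II) C-terminal repeats is phosphorylated at promoters, and the ChIP-seq signal of this form (Ser5P) was compared between mouse fibroblasts depleted of RPAP1 and control fibroblasts, promoter by promoter. The promoters described are the 5270 genes, of 36172 in the deposited table, whose Ser5P promoter signal was at least 600 in the control library, which is worth about 20.8 reads. Of these, 4714 have an established gene name, and the others are predicted, Rik, microRNA or mitochondrial entries. The knockdown cells were primary embryonic fibroblasts of C57Bl/6 mice infected with a lentivirus carrying hairpin #5 against Rpap1 (shRPAP1), and the control cells were the same kind of fibroblasts given a lentivirus with a non-targeting hairpin (SCR). Both were selected with puromycin and harvested on day 3, and chromatin of 3 lines was pooled, so each condition has 1 library per antibody. There is no replicate check, and every difference is between 2 libraries. For both knockdown ChIP samples the description field says SCR, whereas the title, treatment and hairpin fields say knockdown, and those 3 fields were followed. Antibody ab5131 recognised Ser5P, and total Pol II (antibody N-20) was measured in separate immunoprecipitates. The RNA-seq samples and the input chromatin were not analysed here.

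Pol II is recruited to a promoter with its C-terminal repeats largely unphosphorylated. The TFIIH kinase CDK7 then phosphorylates serine 5, which helps the enzyme leave the promoter and recruits the capping enzymes, so Ser5P signal peaks near the start of active genes. RPAP1 is a Pol II-associated protein that links the enzyme to Mediator and to factors that assemble or import it.

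Across the members, Ser5P promoter signal was lower in the shRPAP1 library almost everywhere and by a similar amount. The median promoter held a signal of 445 in shRPAP1 and 925 in SCR, or 15 and 32 reads. The median log2 ratio of shRPAP1 over SCR was -1.11, a signal 2.16-fold lower, with quartiles of -1.42 and -0.82 and a 95% order-statistic interval of -1.12 to -1.09 over promoters. At the deposited scale 4723 promoters (89.6%) were at least 1.5-fold lower and 34 (0.645%) at least 1.5-fold higher. None of those 34 is among the 4714 members counted as named, a set that leaves out the mitochondrially encoded genes. Those 13 genes, with log2 ratios of 0.66 to 1.39, are among the 34. Within the 4714 the highest ratio was that of Psmc5, a proteasome ATPase, at 0.25. The SCR value both chose the members and is the denominator, which favours genes whose SCR value was high by counting error. The 3507 genes of 300 to under 600 had a median log2 ratio of -0.98. In pooled chromatin, fewer cells with polymerase at a promoter and less polymerase per cell cannot be told apart. Any scaling to a common depth is not given in the sources used here, so the size of the common loss is that of the deposited values. Over all 36172 genes the Ser5P promoter reads summed to 156189 in shRPAP1 and 290773 in SCR. A difference in library size was therefore not separated from a loss at promoters. At 1573 olfactory and vomeronasal receptor genes, which are silent in fibroblasts, the mean promoter signal was 9.66 in shRPAP1 and 6.47 in SCR, the opposite direction. Both means are under the 28.8 that 1 read is worth, so they lie near the floor.

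**Figure D1:**
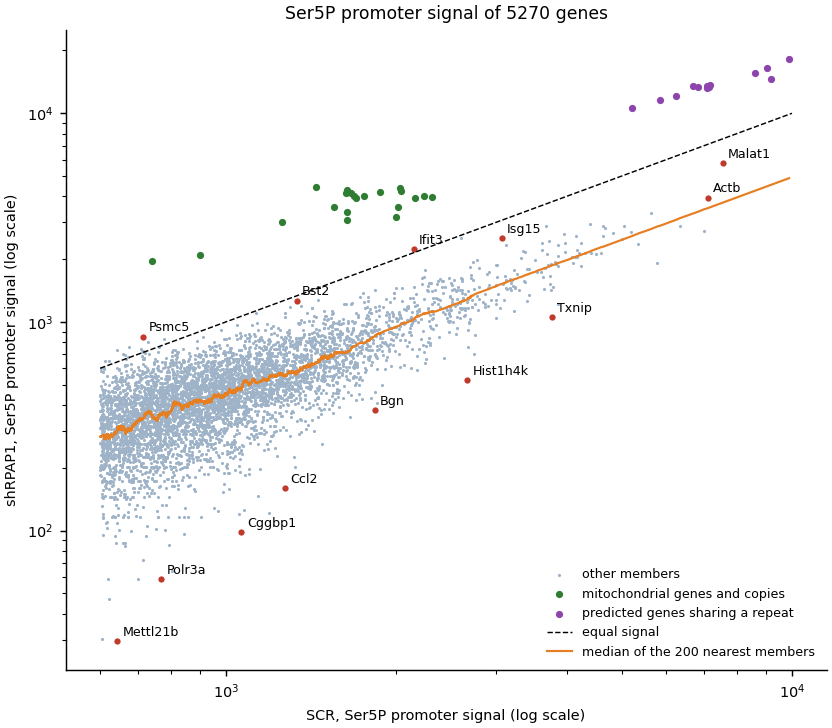
Ser5P promoter signal of each member in the shRPAP1 library (vertical, log scale) against the SCR library (horizontal, log scale); the orange line is the median ratio of the 200 members nearest in SCR signal and the dashed line marks equal signal. Most points lie below the dashed line near the median, 2.16-fold lower. Mitochondrial genes and copies and predicted genes that share a repeat lie above it. Those copies and repeat genes were sought only among predicted members that kept more signal than members of like SCR signal.

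Because the loss was common, each promoter was set against its 200 nearest members by SCR signal, and the difference of its log2 ratio from their median is called the relative log2 ratio. A positive value means that a promoter kept more signal than promoters of like SCR level, and a negative one that it lost more. By this measure 645 promoters (12.2%) were at least 1.5-fold below and 446 (8.46%) at least 1.5-fold above the promoters of like signal. Counting error accounts for a similar spread. The SD of the relative log2 ratio was 0.485 over the 4714 named members, and 0.467 would come from counting reads alone. Across 10 equal groups by SCR signal the ratio of observed to counting SD ran between 0.981 and 1.15, and the median log2 ratio between -1.18 and -1.07. The exact 95% counting interval of the read ratio lay wholly below the running median at 82 promoters (1.56%) and wholly above it at 161 (3.06%). Together these are 243 of 5270 (4.61%), where counting error alone would put up to 5% outside a 95% interval. A single promoter named below therefore stands apart by its reads in these libraries, in a number that counting error could itself give. Among named members, 72 intervals lay below and 113 above.

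**Figure D2:**
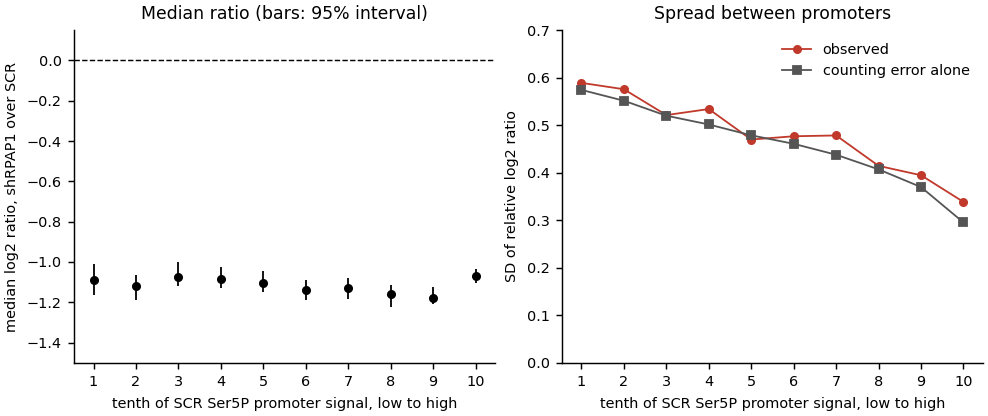
Left, the median log2 ratio of Ser5P promoter signal, shRPAP1 over SCR, in 10 equal groups of named members by SCR signal, with 95% order-statistic intervals. Right, the SD of the relative log2 ratio in the same groups beside the SD that counting error alone gives; the medians lie between -1.18 and -1.07, and observed and counting SD stay within a ratio of 0.981 to 1.15.

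Interferon-stimulated genes, which type I interferon switches on in response to viruses, included several promoters that kept more Ser5P than promoters of like signal. The list of 44 interferon and antiviral genes has 24 members. Of these, 7 were at least 1.5-fold above promoters of like signal, against 8.46% of all members, and 1 was below (12.2% of all members). In all, 15 lay over 0 and 9 under it. The counting interval lay above at 4 (3.06% of all members) and below at 0. The list's median relative log2 ratio was 0.20, beside 0.00 over all members, with an order-statistic interval of -0.19 to 0.59. Their summed reads were 742 in shRPAP1 and 1207 in SCR, a log2 ratio of -0.70 (95% counting interval -0.84 to -0.57), beside -1.08 for the summed reads of all named members. That interval covers counting of the pooled reads and not the spread between genes, and the -1.08 is not matched for SCR signal. Isg15 (87 reads in shRPAP1, 106 in SCR), B2m (81 and 108) and Ifit3 (77 and 74) gave the most shRPAP1 reads. Total Pol II at the same 24 promoters had a median relative log2 ratio of 0.24, with 7 above and 3 below, against 17% and 22.2% of all members.

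Ifit3, an antiviral RNA-binding protein gene, had a Ser5P promoter signal of 2233 in shRPAP1 and 2146 in SCR. Its relative log2 ratio was 1.11 (0.63 to 1.59), the highest lower bound of any named member. Its near copy I830012O16Rik had 2519 in shRPAP1 and 2602 in SCR, and reads of the pair may not be separable. Bst2, which encodes tetherin, a protein that holds budding virions at the cell surface, had 1265 in shRPAP1 and 1334 in SCR, with a relative log2 ratio of 1.17 (0.55 to 1.81). Isg15, a ubiquitin-like protein gene, had 2513 in shRPAP1 and 3071 in SCR, with a relative log2 ratio of 0.73 (0.31 to 1.15). The MHC class I light chain gene B2m had 2334 in shRPAP1 and 3126 in SCR (0.59, 0.17 to 1.03). Outside the list, the helicase gene Ddx60 had 755 in shRPAP1 and 676 in SCR (1.32, 0.47 to 2.21). Ifit3 and Ddx60 thus held slightly more signal in shRPAP1 and the other 3 genes less, where the median promoter held 2.16-fold less. The counting intervals of the log2 ratio itself include 0 at Ifit3 (-0.42 to 0.54) and Ddx60 (-0.69 to 1.05).

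The list was not uniform. Ifnar1, a subunit of the interferon receptor, had 203 in shRPAP1 and 950 in SCR, a relative log2 ratio of -1.12 (-2.55 to 0.07), while its partner Ifnar2 had 595 in shRPAP1 and 760 in SCR (0.75, -0.10 to 1.68). The transcription factor genes Irf1 (775 in shRPAP1, 1004 in SCR) and Irf7 (1478 in shRPAP1, 2154 in SCR) had relative log2 ratios of 0.78 and 0.51. Usp18, the ISG15 protease gene (937 in shRPAP1, 2558 in SCR), was at -0.39. The intervals of these 5 genes all crossed the running median.

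**Figure D3:**
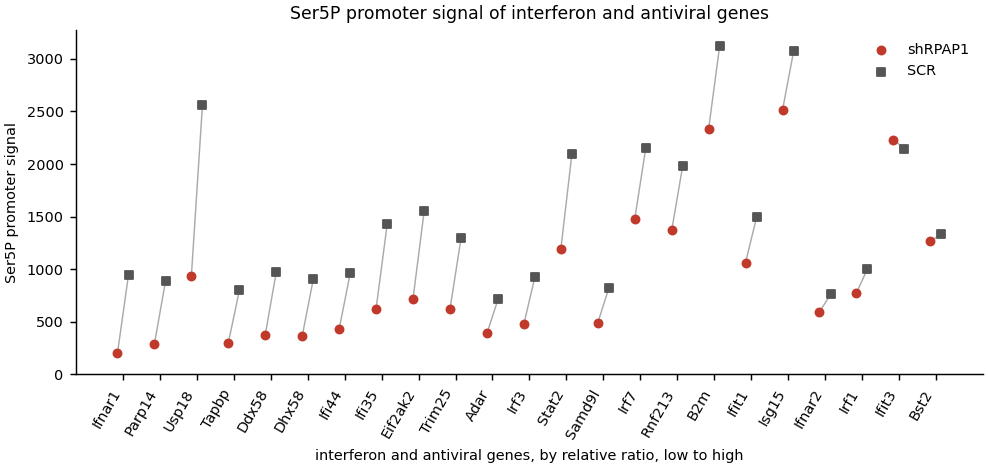
Ser5P promoter signal (linear scale) of 23 of the 24 interferon and antiviral members in shRPAP1 (red circles) and SCR (grey squares), ordered by relative log2 ratio. At the right, Bst2 and Ifit3 have nearly equal signal in both libraries; at the left, Ifnar1 has 203 in shRPAP1 and 950 in SCR.

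The promoters of 4 of the interferon-stimulated genes that stood above are shown with their matches to the interferon response element in capitals, followed by 2 promoters that lost most, Cggbp1 and Stt3b, with CCAAT boxes (CCAAT or its reverse complement ATTGG) in capitals. They are shown as examples of the sequences behind the named promoters, and CCAAT boxes in the first 4 are left in lower case. Each runs 5′ to 3′ on the gene's strand, from 250 bases before to 50 after the RefSeq start, on build GRCm38.p6. The windows are Ifit3 at chr19:34583279-34583578 (+), Isg15 at chr4:156200769-156201068 (-), Bst2 at chr8:71537423-71537722 (-), Ddx60 at chr8:61927837-61928136 (+), Cggbp1 at chr16:64851751-64852050 (+) and Stt3b at chr9:115310419-115310718 (-).
Ifit3: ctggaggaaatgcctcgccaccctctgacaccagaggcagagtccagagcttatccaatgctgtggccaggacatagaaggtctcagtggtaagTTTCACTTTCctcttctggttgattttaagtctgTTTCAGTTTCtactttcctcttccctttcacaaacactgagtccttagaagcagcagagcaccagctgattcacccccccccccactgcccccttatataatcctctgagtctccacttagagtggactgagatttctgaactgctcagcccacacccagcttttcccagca
Isg15: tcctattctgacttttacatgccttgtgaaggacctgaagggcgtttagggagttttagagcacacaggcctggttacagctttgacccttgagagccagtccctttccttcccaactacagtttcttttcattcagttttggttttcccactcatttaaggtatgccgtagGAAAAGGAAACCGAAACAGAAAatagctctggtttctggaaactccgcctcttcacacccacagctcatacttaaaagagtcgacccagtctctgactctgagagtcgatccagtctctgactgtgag
Bst2: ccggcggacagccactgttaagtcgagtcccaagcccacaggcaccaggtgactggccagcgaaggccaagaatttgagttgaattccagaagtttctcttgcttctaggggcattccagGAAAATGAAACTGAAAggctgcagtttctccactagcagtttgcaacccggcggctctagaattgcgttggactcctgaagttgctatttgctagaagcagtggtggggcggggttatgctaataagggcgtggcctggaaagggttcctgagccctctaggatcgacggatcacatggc
Ddx60: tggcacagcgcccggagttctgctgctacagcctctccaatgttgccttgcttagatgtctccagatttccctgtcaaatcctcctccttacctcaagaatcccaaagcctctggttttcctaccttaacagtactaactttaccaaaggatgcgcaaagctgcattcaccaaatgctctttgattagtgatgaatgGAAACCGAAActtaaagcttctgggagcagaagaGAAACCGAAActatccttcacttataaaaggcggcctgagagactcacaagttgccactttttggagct
Cggbp1: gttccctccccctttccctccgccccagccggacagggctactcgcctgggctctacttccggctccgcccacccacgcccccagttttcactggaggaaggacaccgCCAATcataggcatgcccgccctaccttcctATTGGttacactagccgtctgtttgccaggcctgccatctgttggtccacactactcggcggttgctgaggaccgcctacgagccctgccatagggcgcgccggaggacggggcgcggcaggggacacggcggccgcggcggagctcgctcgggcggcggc
Stt3b: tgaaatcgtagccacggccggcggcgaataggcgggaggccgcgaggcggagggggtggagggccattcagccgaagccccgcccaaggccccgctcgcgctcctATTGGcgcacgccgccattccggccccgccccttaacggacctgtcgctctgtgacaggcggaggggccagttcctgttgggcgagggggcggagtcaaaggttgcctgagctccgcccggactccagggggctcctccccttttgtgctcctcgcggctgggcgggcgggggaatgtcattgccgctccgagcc
Ifit3 has 2 matches to the interferon response element, starting 156 and 122 bases before the start. Isg15 has 3 and Bst2 has 2, which overlap within each gene, and Ddx60 has 2, at 53 and 19 bases before the start. Ifit3 holds 1 CpG in its window, Isg15 and Ddx60 hold 6 each and Bst2 holds 11, against 28 in Cggbp1 and 32 in Stt3b. The element, searched on both strands as TTTC, any 2 bases and TTTC, with overlapping matches kept, was found in 3.39% of named members with a RefSeq promoter and in 3.49% of all 27025 promoters in the table. It was present in 9 of the 94 matched promoters (9.57%) whose interval lay above and in 2 of the 55 (3.64%) whose interval lay below. The 9 with intervals above are Ifit3, Bst2, Ddx60, Isg15, B2m, Oas1c, Hax1, Zfp213 and Arl6ip1, and the 2 below are Qars and Rpl4. A match is a description of the letters and not of a bound site.

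Beyond the interferon genes, the 15 named promoters with the highest lower bound held a mixed set of functions. Malat1, an abundant nuclear long noncoding RNA, had the highest SCR signal of any named gene: 5757 in shRPAP1 and 7545 in SCR, or 200 and 262 reads. Its relative log2 ratio was 0.63 (0.35 to 0.90), with more reads behind it than behind the other 14. Ulk1, the kinase that starts autophagy, had 1100 in shRPAP1 and 1132 in SCR (1.10, 0.42 to 1.79). Hmga1, a chromatin architectural protein gene, had 825 in shRPAP1 and 779 in SCR (1.18, 0.40 to 2.01). The proteasome ATPase gene Psmc5 had 849 in shRPAP1 and 715 in SCR (1.30, 0.45 to 2.10). Polr3b, the second largest subunit of RNA polymerase III, had 1184 in shRPAP1 and 1297 in SCR (1.04, 0.39 to 1.68). The other 7, beside Ifit3, Bst2 and Ddx60, were Srd5a3, Harbi1, Camk2d, Mapre1, Arpc1b, Tnfaip2 and Neu1, with SCR signals of 613 to 1357. At this set total Pol II did not always follow: its relative log2 ratio was 1.09 at Hmga1, 1.05 at Camk2d and 0.71 at Polr3b, but -0.22 at Ulk1 and -0.68 at Mapre1.

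The 15 named promoters with the lowest upper bound lost most. Cggbp1, which encodes a protein that binds CGG repeats, had a signal of 98.1 in shRPAP1 and 1066 in SCR, or 3 and 37 reads, with a relative log2 ratio of -2.30 (-4.83 to -0.83). Ccl2, the monocyte chemoattractant, had 160 in shRPAP1 and 1270 in SCR (-1.78, -3.20 to -0.44). The replication-dependent histone gene Hist1h4k had 526 in shRPAP1 and 2666 in SCR, or 18 and 92 reads (-1.28, -2.11 to -0.55), the most reads of the 15. Stt3b, a catalytic subunit of the oligosaccharyltransferase that N-glycosylates proteins, had 120 in shRPAP1 and 1054 in SCR, a log2 ratio of -3.13 as deposited, and its relative interval ran between -4.03 and -0.60. Polr3a, the largest subunit of RNA polymerase III, had 58.4 in shRPAP1 and 768 in SCR, or 2 and 27 reads (-2.62, -5.79 to -0.68). Polr3a and Polr3b, whose products form the active centre of the same enzyme, thus stood at opposite ends.

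Other genes at this end were Mettl21b (29.6 in shRPAP1, 643 in SCR) and Tspan14 (30.3 in shRPAP1, 604 in SCR), each with 1 read in shRPAP1, and Fig4, a phosphoinositide phosphatase gene (64.2 in shRPAP1, 804 in SCR). The set was completed by Rpf2, Plekhh2, Narf, Fam115a, Gk5, Fam96a and B3galt6, with 2 to 5 reads in shRPAP1. Total Pol II was below its own like-signal median at 14 of these 15. The share was 50% over all members and 70.8% over the 72 named members whose Ser5P interval lay below. The relative log2 ratio of total Pol II was -3.49 at Polr3a, -1.32 at Ccl2 and -0.97 at Cggbp1. Fam96a was the exception, at 0.35. These total Pol II values rest on few reads: 0 in shRPAP1 and 10 in SCR at Polr3a, 2 and 10 at Ccl2, and 3 and 13 at Cggbp1. The size at Polr3a is therefore set largely by the value added before the logarithm. The intervals of Mettl21b, Polr3a, Tspan14, Rpf2, Plekhh2 and B3galt6 no longer lay apart when promoters were ranked by the mean of both Ser5P libraries in place of the SCR library.

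**Figure D4:**
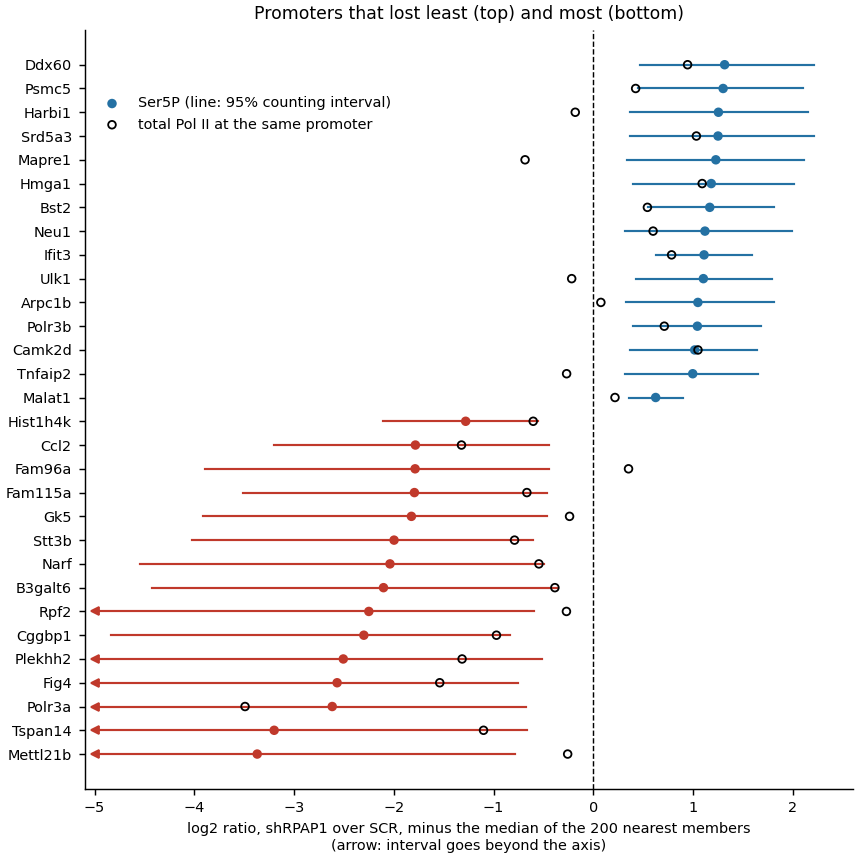
Relative log2 ratio of Ser5P promoter signal (filled points, lines the 95% counting interval) for the 15 named promoters that lost least (blue, top) and most (red, bottom), with total Pol II at the same promoters (open circles). Intervals of genes with few shRPAP1 reads are long, as at Mettl21b with 1 read; Malat1, with 200 reads, has the shortest.

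Total Pol II was measured in other immunoprecipitates of the same chromatin and was not used to choose the members. Its promoter signal had a median of 174 in shRPAP1 and 371 in SCR, and a median log2 ratio of -1.09. Relative to promoters of like SCR total Pol II signal, 22.2% of members were at least 1.5-fold below and 17% at least 1.5-fold above. Of the 82 promoters whose Ser5P interval lay below, 29 (35.4%) were at least 1.5-fold below in total Pol II and 7 above. Of the 113 named promoters whose interval lay above, 33 (29.2%) were at least 1.5-fold above and 8 below. The Spearman rho between both relative log2 ratios was 0.16 over 4714 named members, which share chromatin and differ in depth, since the median member had 6 total Pol II reads in shRPAP1 and 13 in SCR. Over gene bodies the median log2 ratio of the members was -0.84 for Ser5P and -0.59 for total Pol II.

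Stress response genes had list medians over 0 whose intervals included 0. Of 29 genes of the unfolded protein response or the integrated stress response, 0 were at least 1.5-fold below and 2 above (12.2% and 8.46% of all members), with a median relative log2 ratio of 0.20 (order-statistic interval -0.04 to 0.35). Ddit3, the stress-induced factor CHOP, had 2940 in shRPAP1 and 4391 in SCR (0.44, 0.06 to 0.81). Hspa5, the chaperone BiP, had 2117 in shRPAP1 and 3699 in SCR (0.21, -0.23 to 0.63). Summed reads of the 29 genes were 865 in shRPAP1 and 1552 in SCR, a log2 ratio of -0.84 (-0.96 to -0.72). This interval covers counting of the pooled reads and not the spread between genes. Total Pol II ran the other way at this list, with a median relative log2 ratio of -0.34 and 11 of 29 below, against 22.2% of all members. Among 14 NRF2 antioxidant genes, 0 were below and 2 above, with a median of 0.22 (-0.07 to 0.55). Those 2 were Sqstm1, an autophagy receptor (1778 in shRPAP1, 2252 in SCR), and Txn1, thioredoxin (1063 in shRPAP1, 1434 in SCR). The haem oxygenase gene Hmox1 had 1372 in shRPAP1 and 1985 in SCR, a relative log2 ratio of 0.55 (-0.01 to 1.11).

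Of 11 glycolysis and glucose uptake genes, 0 were below and 3 above (12.2% and 8.46% of all members), with a median relative log2 ratio of 0.33 (-0.09 to 0.80) and no gene's interval apart. The 3 were the lactate transporter gene Slc16a1 (736 in shRPAP1, 809 in SCR), Pgam1 (722 in shRPAP1, 912 in SCR) and Pgk1 (585 in shRPAP1, 767 in SCR). The glucose transporter gene Slc2a1 had 1468 in shRPAP1 and 2410 in SCR. Total Pol II at these 11 had a median of 0.26. Lysosome genes (24 members, median 0.16) had 0 below and 2 above, the sialidase gene Neu1 and the cholesterol carrier gene Npc2 (1321 in shRPAP1, 1729 in SCR). Autophagy genes (17, median 0.04) had 0 below and 2 above. Ubiquitin-conjugating enzyme and cullin genes (18, median 0.25, order-statistic interval 0.04 to 0.46) had 1 below and 1 above. Heat shock protein genes (17, median 0.16) had 2 below and 0 above.

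Genes of the fibroblast programme, which make matrix, contract and hold on to the substrate, had list medians near 0, with single genes that lost more. Extracellular matrix genes (23 members) had a median relative log2 ratio of -0.10 (-0.45 to 0.11), with 6 below and 1 above, against 12.2% and 8.46% of all members. Bgn, the proteoglycan biglycan, had 376 in shRPAP1 and 1833 in SCR (-1.19, -2.19 to -0.33). The major collagen gene Col1a1 had 2129 in shRPAP1 and 4417 in SCR (-0.04, -0.46 to 0.37), and fibronectin, Fn1, had 2659 in shRPAP1 and 4821 in SCR (0.16, -0.23 to 0.53). Total Pol II at the 23 had a median of -0.39, with 9 below and 0 above, against 22.2% and 17% of all members. Actin and SRF target genes (22) had a median of 0.00, with 3 below and 0 above. The smooth muscle genes Cnn1 (410 in shRPAP1, 1846 in SCR) and Tagln (1220 in shRPAP1, 3859 in SCR) had relative log2 ratios of -1.09 and -0.65 with intervals below. Acta2, smooth muscle actin, had 3341 in shRPAP1 and 5634 in SCR (0.26, -0.08 to 0.61), and Actb had 3942 in shRPAP1 and 7099 in SCR (0.17, -0.14 to 0.48). The last 2 intervals include 0.

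Focal adhesion genes (16, median -0.13) had 3 below and 1 above, against 12.2% and 8.46% of all members. Talin 1, Tln1, had 638 in shRPAP1 and 2247 in SCR, with its interval below (-0.78). Mesenchymal and TGF-beta pathway genes (12, median 0.00) had 2 below and 2 above, against the same shares of all members. The repressor gene Snai1 had 389 in shRPAP1 and 1582 in SCR (-0.88), and the inhibitory SMAD gene Smad6 had 672 in shRPAP1 and 783 in SCR (0.91). YAP-TEAD target genes (11, median 0.11) had 0 below and 0 above in Ser5P, against the same shares of all members. In total Pol II 6 of them were below and 1 above, with a median of -0.62, against 22.2% and 17% of all members. Cyr61, a gene of this list, had a Ser5P signal of 2684 in shRPAP1 and 5195 in SCR and a total Pol II signal of 538 in shRPAP1 and 2168 in SCR.

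NF-kB and inflammatory genes (13 members) had a median relative log2 ratio of -0.33 (-0.95 to 0.49), with 5 below and 2 above, against 12.2% and 8.46% of all members. Besides Ccl2, the NF-kB subunit gene Rel had 162 in shRPAP1 and 762 in SCR (-1.15, -2.60 to 0.28), and the chemokine gene Cxcl1 had 145 in shRPAP1 and 624 in SCR (-0.95, -2.74 to 0.45). In the other direction Tnfaip2 had 1106 in shRPAP1 and 1273 in SCR (1.00, 0.32 to 1.65). Total Pol II at these 13 had a median of -0.49, with 6 below and 2 above, against 22.2% and 17% of all members. Cholesterol and fatty acid synthesis genes (16) had a median of -0.35 (-0.49 to 0.29), with 3 below and 0 above. Hsd17b7, a sterol reductase gene, had 158 in shRPAP1 and 879 in SCR (-1.40, -3.24 to -0.14). Total Pol II at the 16 had a median of -0.05.

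Replication-dependent histone genes, which are transcribed in S phase to package new DNA, had a median slightly under 0. Of 64 members, 7 were below and 0 above, against 12.2% and 8.46% of all members, and the median relative log2 ratio was -0.10 (order-statistic interval -0.28 to -0.01). Their summed reads were 2010 in shRPAP1 and 4605 in SCR, a log2 ratio of -1.20 (-1.27 to -1.12), beside -1.08 for all named members. The interval of the summed reads leaves out the spread between genes, and the -1.08 is not matched for SCR signal. Intervals lay below at Hist1h4k, Hist1h2ai (10 reads in shRPAP1, 50 in SCR) and Hist1h2ae (10 reads in shRPAP1, 47 in SCR), and above at Hist2h4 (67 reads in shRPAP1, 95 in SCR). Total Pol II did not share the direction, with a median of 0.11 at the 64 promoters. Histone genes are near-identical copies in clusters, so reads may be divided or shared between them.

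**Figure D5:**
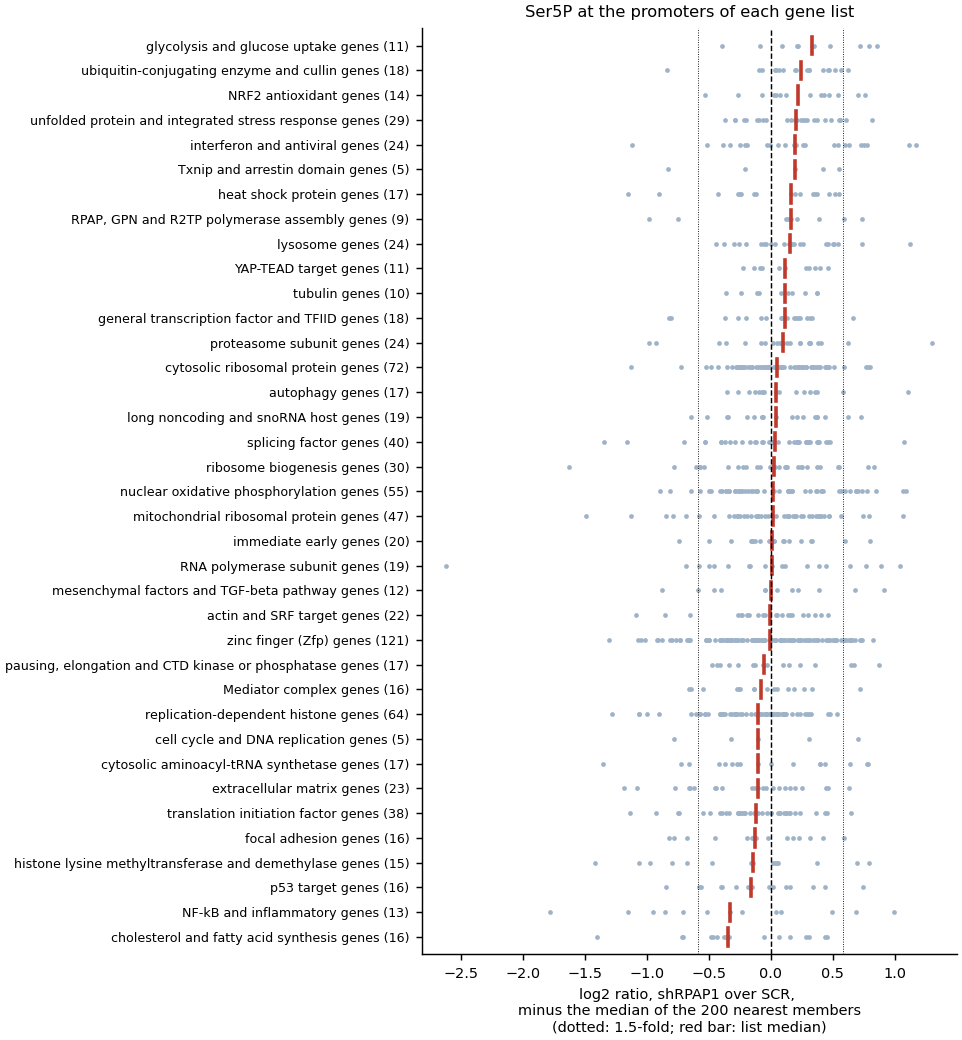
Relative log2 ratio of Ser5P promoter signal for the members of each gene list with 5 or more members (points), without the mitochondrially encoded, Gm-number and Rik lists, with the list median (red bar), ordered by median; the number of members stands in brackets. The plotted medians lie between -0.35 for cholesterol and fatty acid synthesis genes and 0.33 for glycolysis and glucose uptake genes; the 13 mitochondrially encoded genes, not plotted, have a median of 2.24.

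Genes of protein synthesis had list medians between -0.12 and 0.05. Cytosolic ribosomal protein genes (72 members) had a median relative log2 ratio of 0.05, with 2 below and 4 above, against 12.2% and 8.46% of all members. Rps18 had 243 in shRPAP1 and 1168 in SCR (-1.13) and Rpl4 had 665 in shRPAP1 and 2253 in SCR (-0.72), both with intervals below. Rpl8 had 1382 in shRPAP1 and 1744 in SCR (0.80) and Rpl23a had 1224 in shRPAP1 and 1631 in SCR (0.78), both with intervals above. The median was 0.02 for mitochondrial ribosomal protein genes (47, 5 below and 3 above), 0.03 for ribosome biogenesis genes (30, 3 below and 2 above), -0.12 for translation initiation factor genes (38, 4 below and 1 above) and -0.10 for cytosolic aminoacyl-tRNA synthetase genes (17, 3 below and 3 above). Bop1, a ribosome biogenesis factor, had 128 in shRPAP1 and 846 in SCR (-1.63), with its interval below. Nuclear oxidative phosphorylation genes (55, median 0.02) had 3 below and 10 above, against 12.2% and 8.46% of all members, and the complex I genes Ndufc2 (728 in shRPAP1, 714 in SCR) and Ndufa12 (716 in shRPAP1, 713 in SCR) had intervals above. Proteasome subunit genes (24, median 0.10) had 2 below and 2 above.

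Genes of the transcription machinery itself had list medians between -0.08 and 0.16. RNA polymerase subunit genes (19 members) had a median relative log2 ratio of 0.01, with 2 below and 4 above, against 12.2% and 8.46% of all members. Polr2a, the largest Pol II subunit and the protein that carries the serine 5 repeats, had 2826 in shRPAP1 and 4668 in SCR (0.29, -0.09 to 0.66), and Polr2b had 817 in shRPAP1 and 1427 in SCR (0.39, -0.34 to 1.08). The RPAP, GPN and R2TP genes, which help assemble and import Pol II, had 9 members with a median of 0.16, 2 below and 2 above. Rpap1 itself had a Ser5P promoter signal of 541 in shRPAP1 and 886 in SCR (0.39, -0.51 to 1.27) and a total Pol II signal of 325 in shRPAP1 and 211 in SCR. A hairpin acts on the mRNA, so promoter signal does not check the knockdown, and Rpap1 mRNA was not analysed here. Mediator genes (16, median -0.08, 2 below and 1 above), general factor and TFIID genes (18, median 0.11, 2 below and 1 above), pausing and elongation genes (17, median -0.06, 0 below and 3 above), splicing factor genes (40, median 0.04, 3 below and 1 above) and zinc finger genes (121, median -0.01, 16 below and 13 above) lay near 0. Aff1, a scaffold of the super elongation complex, was the only pausing and elongation gene with an interval apart, at 881 in shRPAP1 and 1058 in SCR (0.87). Histone lysine methyltransferase and demethylase genes (15) had a median of -0.15 (-0.80 to 0.06), with 5 below and 2 above, against 12.2% and 8.46% of all members.

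Among rapidly induced genes, immediate early genes (20 members, median 0.01) had 1 below and 2 above, against 12.2% and 8.46% of all members. The AP-1 gene Fosl1 had 776 in shRPAP1 and 972 in SCR (0.80), with its interval just above, while Fos had 790 in shRPAP1 and 2292 in SCR (-0.50, -1.20 to 0.13). The p53 target genes (16, median -0.16) had 1 below and 1 above, and the tubulin genes (10, median 0.11) 0 and 0. Txnip, the glucose-responsive arrestin whose product binds thioredoxin, had 1052 in shRPAP1 and 3765 in SCR, or 36 and 130 reads (-0.83, -1.42 to -0.30), and its total Pol II signal was 364 in shRPAP1 and 2259 in SCR (-1.47). The other 4 members of its list of arrestin domain genes and partners lay between -0.21 and 0.55. Long noncoding and snoRNA host genes (19, median 0.04) had 1 below and 2 above, and besides Malat1 the snoRNA host Snhg5 had its interval above (2649 in shRPAP1, 3953 in SCR). Of 60 cell cycle and DNA replication genes only 5 reached the threshold, and Pcna, the replication clamp, had 1323 in shRPAP1 and 1781 in SCR (0.70, interval above). The Hox list had 0 members, and the circadian and microRNA lists 2 each. Intervals just apart at Smad6, Snai1, Fosl1, Hist2h4, Rps18, Rpl4, Rpl23a, Hsd17b7, Qars and Txn1 reached the running median under at least 1 other setting. Predicted Gm-number genes (239, median 0.02) had 22 below and 40 above, and Rik genes (302, median 0.00) 37 below and 28 above, against the same 12.2% and 8.46% of all members.

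CpG count and GC content hardly differed between promoters that lost most and those that lost least. Median gene length was highest in the group that lost most, and ETS sites were least frequent in the group that lost least. RefSeq promoters were matched for 3810 of the 4714 named members (80.8%), 191 of them through a synonym. In 5 equal groups of members, ordered from those that lost most to those that lost least, the median CpG count was 22, 22, 21, 21 and 21, and the median GC content was 61.3%, 61.0%, 60.7%, 60.5% and 60.7%. The letters TATAAA, 20 to 45 bases before the start, were found in 1.39% of these members and in 2.22% of all promoters. The CCAAT box was found in 41.5% of members and 38.0% of all promoters, in 44.7% of those whose interval lay above and in 41.8% of those whose interval lay below. In the 5 groups, from lost most to lost least, its share was 41.7%, 40.0%, 41.9%, 41.6% and 42.3%. The GC box (GGGCGG, both strands) was found in 68.6% of members and 35.9% of all promoters, in 62 of the 94 above and in 37 of the 55 below. Its share in the 5 groups was 65%, 69%, 70%, 71% and 68%. The ETS site (CCGGAAG, both strands) was found in 25.2% of members and 9.14% of all promoters, in 14.9% of those above and in 27.3% of those below. Its share in the 5 groups was 27.3%, 26.2%, 25.6%, 25.5% and 21.7%, a smaller contrast than between the few promoters with intervals apart. Median relative log2 ratios in 5 equal groups by CpG count, low to high, were -0.01, 0.04, -0.03, 0.01 and -0.06 for Ser5P, and 0.14, -0.01, 0.00, -0.03 and -0.19 for total Pol II, so CpG-rich promoters were lower in total Pol II and nearly level in Ser5P. Whether these differ was not tested. Median gene length in 5 equal groups of named members, from lost most to lost least, was 21022.5, 17888.5, 18405, 17737 and 17696 bases. In 5 equal groups by gene length, short to long, the Ser5P medians were 0.02, 0.00, 0.00, 0.00 and -0.04. Whether length or motif shares differ was not tested.

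The members that were higher in shRPAP1 at the deposited scale were mostly not ordinary promoters. The 13 genes of the mitochondrial genome, which has its own RNA polymerase, had Ser5P values of 3169 to 4399 in shRPAP1 and 1553 to 2242 in SCR, a median log2 ratio of 1.11, and a median total Pol II log2 ratio of 0.89. Shared sequence was sought only in the 35 predicted or Rik members whose interval lay above, of which 33 could be placed on the genome. Copies among members that lost as much as others or more were therefore not sought. Of the 33, 8 are predicted pseudogenes that share at least 40% of their 31-base words with mitochondrial DNA. They had values of 1952 to 4425 in shRPAP1 and 741 to 2313 in SCR. Another set of 12 predicted genes shares at least 10% of these words with other genes among the 33 that do not overlap them. They had Ser5P values of 10640 to 18138 in shRPAP1 and 5215 to 9882 in SCR, a median log2 ratio of 0.93, but were lower in total Pol II, at -0.72. Gm26870, which overlaps some of the 12, had 13344 in shRPAP1 and 7145 in SCR. These thresholds on shared words were chosen after the values were seen.

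At the threshold, Fam76b (264 in shRPAP1, 600 in SCR) and Rnmtl1 (441 in shRPAP1, 600 in SCR) lay just inside, and Terf2 (250.3 in shRPAP1, 599 in SCR) and Ube2v1 (337 in shRPAP1, 599 in SCR) just outside. The labelled cell type was checked on markers fixed by name. Of 10 fibroblast markers 7 were members, and the summed signal of all 10 was 7966 in shRPAP1 and 17551 in SCR. Not members were Twist1 (268 in shRPAP1, 598.6 in SCR), Col1a2 (104 in shRPAP1, 125.5 in SCR) and Pdgfra. Pdgfra was low in SCR and higher in shRPAP1 (167 in shRPAP1, 30.3 in SCR). Among markers of other cell types, 1 of 5 blood genes (Cd68) and 1 of 4 neural genes (Tubb3) were members, and 0 of 4 each for endothelial, epithelial and pluripotent cells. The pan-leukocyte gene Ptprc was at the floor of no coverage in both Ser5P libraries. All members summed to 102509 reads in shRPAP1 and 202202 in SCR, 65.6% and 69.6% of the promoter reads of each library.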

How the data were processed

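Primary fibroblast ChIP-seq values were taken from the table the authors deposited, in which each promoter value is a signal, read here as base coverage. The submitters' processing notes name the build GRCm38 (mm10), MACS2 2.0.10.20130712, bedtools 2.23.0, SAMtools 0.1.16 and FastQC, without their roles. Not given in the sources used here were the aligner, filters, promoter window, input correction and scaling. The 36230 rows held 58 exact repeats, which were dropped. All 144688 promoter values are whole multiples of a step of 0.721, within 0.0051, and 1 read of 40 bases is worth 28.8 on that scale; the lowest value, 0.72, is no coverage. Log2 ratios were taken after adding 0.72, and for gene bodies 0.33. Read ratios carry exact 95% Clopper-Pearson intervals, which cover counting error only, since reads are not independent molecules. Intervals of medians are order-statistic intervals that take genes as independent.

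With 1 library per group no test between conditions was made. The members, the 45 gene lists (of which 40 had at least 5 members) and the settings were chosen with earlier results of these data known. Named genes were Rpap1, the 15 named members with the lowest upper and the 15 with the highest lower interval bound, the 10 with the highest SCR signal, the 2 lowest and 2 highest of each list, and the 2 genes each side of the threshold; other genes were chosen after their values were seen, and some genes are not reported here. Sequences are from RefSeq on GRCm38.p6, the build of the files. The steps were tested on simulated data. Python 3.11.15, NumPy 2.4.6, SciPy 1.17.1, pandas 2.3.3 and pysam 0.24.0 were used. Alternatives were 14 settings, listed with the results that changed.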

Additional observations from a re-analysis of the deposited data

How the results depend on the processing

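No paired analysis was possible because each condition has 1 library per antibody. Of 14 settings, the median log2 ratio moved beyond its interval under 6: it was -1.06 with a pseudocount of 1 read, -1.07 at a threshold of 300, -1.04 for members chosen by SCR total Pol II signal, -1.13 with the mean silent-gene signal subtracted, -1.69 with background genes set equal and, by construction near 0, -0.00068 with the median ratio set to 1. At a threshold of 1200 (1402 members), 103 promoters were 1.5-fold below and 96 above, and intervals lay below at 29 and above at 84. At a threshold of 300 (8777 members), 1358 were below and 963 above, and 134 intervals lay below. Fewer or more promoters enter at these thresholds. Under the other settings the 4 counts stayed within 1.5 times. Of the 161 intervals above, 111 were kept when promoters were ranked by the mean of both libraries, and of the 82 below, 57. There, 6 of the 15 promoters named as losing most (Mettl21b, Polr3a, Tspan14, Rpf2, Plekhh2 and B3galt6) no longer had an interval apart; the 15 that lost least kept theirs under every setting in which they were members. No list or named gene changed sign with its interval apart. The cytosolic ribosomal protein median was -0.05 and -0.04 under ranking by the mean of both Ser5P libraries and by total Pol II. At a threshold of 1200 the median of nuclear oxidative phosphorylation genes was -0.24 (11 members). That of Gm-number genes was 0.18 (77 members) at the same threshold. The median promoter rests on 15 shRPAP1 and 32 SCR reads. Over named members counting alone gives an SD of about 0.467 on the log2 scale. In 10 equal groups by SCR signal it was 0.574 in the lowest and 0.295 in the highest. Which differences stand apart thus depends on the reads of each promoter, and at promoters of few reads differences of about this SD are within counting error.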
